A study of Mus musculus with 18 samples.

Results

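Tumors given the EV-loaded STING agonist were compared with tumors given the free agonist after 2 doses of each. The comparison took 4 of the 18 tumors of the series by their labels, 2 given exoCDN2 at 0.1 µg of agonist per dose and 2 given CDN2 at 20 µg per dose. All were B16F10 tumors, a mouse melanoma line grown under the skin of the right flank of C57BL/6 mice. The study's methods describe the animals as female and 5 to 6 weeks old. CDN2, which the labels call CL656, is a cyclic dinucleotide that activates the sensor STING, and exoCDN2 is the same compound loaded into extracellular vesicles from HEK293 cells. Doses went into the tumor 3 days apart, and RNA from the whole tumor was taken 24 h after the second one. A further 3 pairs of tumors served as reference here, namely PBS after 2 doses and exoCDN2 (0.1 µg) and CDN2 (20 µg) after 1 dose. Pairs given PBS, unloaded EVs or CDN2 at 100 µg, each after 1 dose, were not compared here. They entered the statistical fit and so its shared estimate of spread. The vesicle and the amount of agonist differed together between the 2 formulations and cannot be told apart, and no tumors given unloaded EVs 2 times were analysed. B16F10 is a transplanted line, so all tumors share 1 source of melanoma cells.

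STING sits in the membrane of the endoplasmic reticulum and, once bound by a cyclic dinucleotide, activates IRF3 and NF-kB. IRF3 drives type I interferon, which in turn induces a broad set of antiviral genes, while NF-kB drives cytokines and chemokines that attract neutrophils and monocytes. In tumors the pathway is known for the recruitment of cytotoxic T cells, whose interferon gamma induces MHC class II and guanylate-binding proteins in neighbouring cells.

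After 2 doses, 3279 of the 16927 genes tested changed between the formulations, by edgeR's quasi-likelihood test at an adjusted p below 0.05 and a ratio over 2. With exoCDN2, 1242 genes were higher (7.34% of those tested) and 2037 were lower (12.0%). Log2 ratios are given throughout as exoCDN2 to CDN2, so that a positive value is higher with exoCDN2, and levels are in CPM, which are counts relative to the TMM-scaled library size. The median log2 ratio over all genes was 0.03. When libraries were scaled by total counts instead, this median moved to 0.28 and the split of changed genes to 2172 higher and 1432 lower. Against PBS, exoCDN2 raised 1501 genes (8.87%) and lowered 419 (2.48%), and CDN2 raised 3391 (20.0%) and lowered 1786 (10.6%), both relative to the same 2 PBS tumors. Of the 1242 genes that were higher with exoCDN2, 704 were not called different from PBS with exoCDN2 and were below PBS with CDN2, whereas 74 were above PBS with exoCDN2 alone. Of the 2037 lower genes, 1329 were above PBS with CDN2 and not called with exoCDN2, and 301 were above PBS with both.

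The 2 CDN2 tumors were less alike than the 2 exoCDN2 tumors, with 27.1% and 6.41% of genes more than 2-fold apart. Total expected counts ranged from 21608895 in CDN2 replicate 1 to 65983630 in exoCDN2 replicate 2. Without CDN2 replicate 1, 1023 genes changed (271 higher, 752 lower), and without CDN2 replicate 2, 6257 did (3172 higher, 3085 lower). Without exoCDN2 replicate 1 and replicate 2, 2404 and 1341 genes changed. Across all 4 of these fits, 180 genes stayed higher and 489 stayed lower. When the spread was estimated from the 4 tumors alone, 30 genes changed, all lower with exoCDN2, so nearly every call rests on the spread shared with the other groups. Nothing in the labels states that the tumors of a group were independent experiments. The p-values rest on the spread within groups, pooled over all fitted groups, and not on that of the compared tumors alone. The PBS pair after 2 doses had 10.6% of genes more than 2-fold apart, against 27.1% in the CDN2 pair. The pooled spread can therefore understate that of the CDN2 tumors. An exact permutation test of 2 tumors against 2 cannot go below a two-sided p of 0.333, and none was used. In bulk RNA, fewer cells of a type and less RNA per cell cannot be told apart.

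Of the 30 genes called from the 4 tumors alone, 7 were on the skeletal muscle list and 3 on the erythroid list. The other 20 were on no list, but most of them are also genes of striated muscle. Among them were Hspb6, a small heat shock protein of muscle, and Ankrd23, a titin-binding protein of the sarcomere. Mybpc1, Actn2, Nrap, Myom1, Myom2, Tcap and Csrp3, further genes of the sarcomere, were there too. No gene of an immune list was among the 30.

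**Figure D1:**
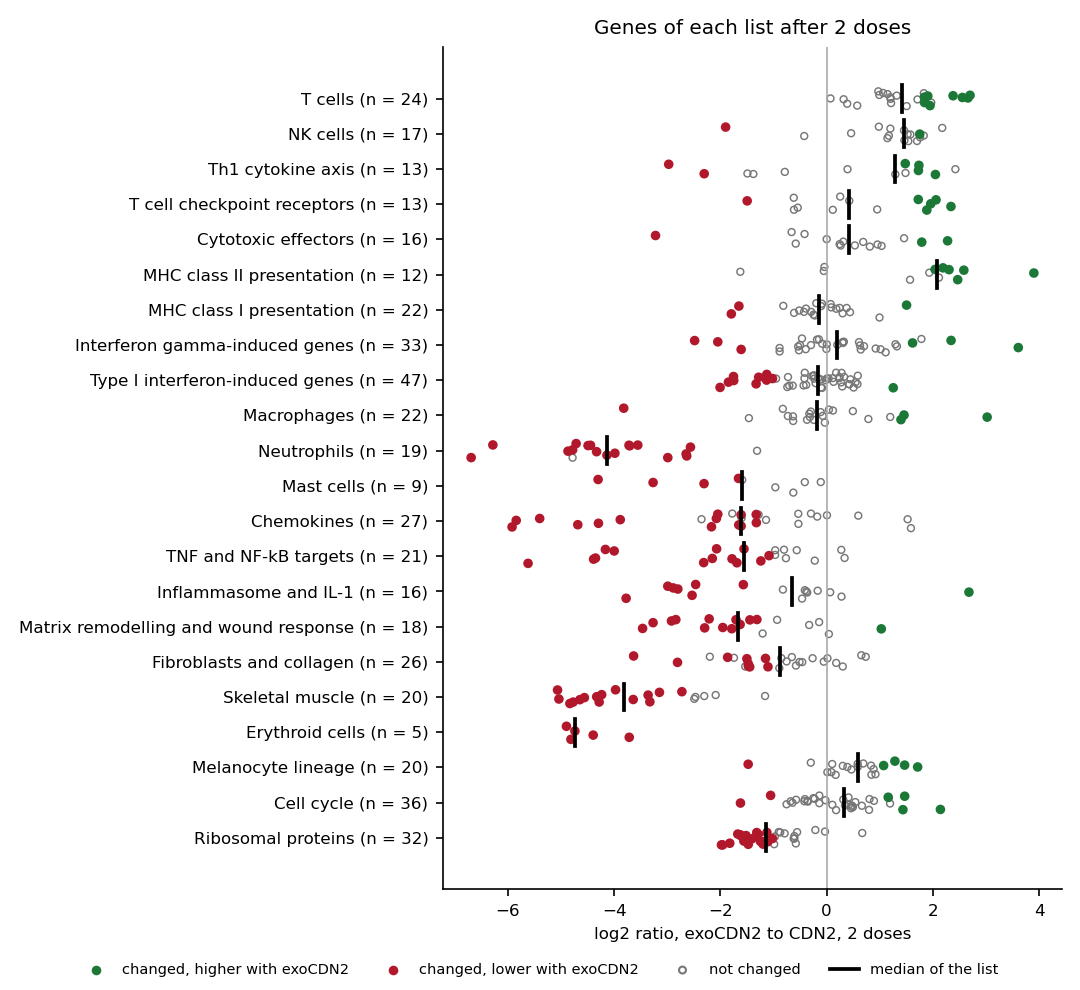
Log2 ratio of exoCDN2 to CDN2 after 2 doses (horizontal axis) for each tested gene of 22 gene lists, with filled points for genes that changed and a bar at each list's median. Neutrophil, skeletal muscle and erythroid genes lie furthest below 0 (medians -4.13, -3.81 and -4.74), and MHC class II genes furthest above it (median 2.08).

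Genes of T cells were higher with exoCDN2. Of 24 tested T cell genes, 8 rose, none fell, and all 24 had a positive log2 ratio (median 1.41, range 0.07 to 2.70). Cd8a (ENSMUSG00000053977, chr6:71373427-71379173 on GRCm38), the defining chain of the CD8 co-receptor, stood at 12.1 and 9.70 CPM with exoCDN2 and at 2.05 and 2.12 CPM with CDN2, over 0.392 and 0.155 CPM with PBS. The formulations did not overlap, and the log2 ratio was 2.38 (SE 0.74, edgeR adjusted p = 0.027). Themis, which tunes T cell receptor signalling in the thymus, read 4.48 and 2.92 CPM against 0.569 and 0.564 CPM. Its log2 ratio of 2.70 (SE 0.58, edgeR adjusted p = 0.0058) held without each of the 4 tumors. Trac, the constant region of the T cell receptor alpha chain, read 3.80 and 3.57 CPM against 0.284 and 0.805 CPM (log2 ratio 2.66, SE 0.63). Cd3e, a signalling chain of the receptor, had a log2 ratio of 1.95. Cd4, which macrophages share, read 0.905 and 0.882 CPM with exoCDN2 and 0.114 and 1.13 CPM with CDN2, and the groups overlapped (log2 ratio 0.39, edgeR adjusted p = 0.72). The list's summed level was 113 and 85.0 CPM with exoCDN2, 36.1 and 44.2 CPM with CDN2 and 10.9 and 8.88 CPM with PBS. Against PBS, 22 T cell genes rose with exoCDN2 and 17 with CDN2. With CDN2 replicate 1, CDN2 replicate 2, exoCDN2 replicate 1 and exoCDN2 replicate 2 left out in turn, 2, 7, 2 and 3 T cell genes passed, and the list's median stayed between 1.21 and 1.8. Calls were lost without CDN2 replicate 1 for Trac (2.19), without CDN2 replicate 2 or either exoCDN2 tumor for Cd3e (1.52) and without CDN2 replicate 1 or either exoCDN2 tumor for Cd8a (2.24), where the log2 ratio in brackets, here and later, is the weakest among the fits that lost the call.

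Genes of the Th1 cytokine axis, by which T cells and antigen-presenting cells signal to each other, did not all move one way. Of 13 tested, 4 rose and 2 fell, where 7.34% of all tested genes were higher and 12.0% lower. In an added fit with each tumor's trend on transcript length and GC content removed, 4 were higher and none was lower. Tbx21, the master factor of Th1 cells, read 2.54 and 1.76 CPM with exoCDN2 and 0.455 and 0.564 CPM with CDN2 (log2 ratio 2.05, SE 0.43). Stat4, which carries the IL-12 signal, had a log2 ratio of 1.73 and Cxcr3, the receptor of Th1 cells for CXCL9 and CXCL10, one of 1.48. The 2 that fell were Il27, a cytokine subunit of antigen-presenting cells (log2 ratio -2.97), and its partner Ebi3 (-2.30). Ifng itself read 5.15 and 3.21 CPM against 1.02 and 1.88 CPM, without overlap but short of the threshold (log2 ratio 1.49, SE 0.86, edgeR adjusted p = 0.19). In fits that left out CDN2 replicate 1, CDN2 replicate 2, exoCDN2 replicate 1 and exoCDN2 replicate 2 in turn, 1, 4, 2 and 2 Th1 genes were higher and 0, 4, 1 and 0 lower. Leave-one-out fits lost calls without CDN2 replicate 1 or exoCDN2 replicate 2 for Cxcr3 (1.01) and Ebi3 (-1.05), without CDN2 replicate 1 or exoCDN2 replicate 1 for Stat4 (1.42) and without CDN2 replicate 1 or either exoCDN2 tumor for Il27 (-1.58).

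Of 13 checkpoint receptors tested, 5 were higher with exoCDN2 and 1 was lower, where 7.34% of all tested genes were higher and 12.0% lower. Among the higher were Pdcd1, which encodes PD-1 (3.72 and 3.37 CPM against 0.512 and 1.53 CPM, log2 ratio 1.73), Cd160 (1.96) and Cd96 (2.06). Tnfrsf9, an activation receptor that myeloid and endothelial cells also carry, was lower (log2 ratio -1.49), and Lag3 read 6.41 and 4.69 CPM against 11.5 and 5.61 CPM, with no call. Without CDN2 replicate 1, exoCDN2 replicate 1 or exoCDN2 replicate 2, no checkpoint gene was called higher. Among 16 cytotoxic effector genes, Gzmk and Fasl rose (2.28 and 1.79) and Srgn, the proteoglycan of secretory granules in neutrophils, mast cells and lymphocytes, fell (-3.22). Gzmb, the main granzyme of killer cells, read 124 and 60.0 CPM with exoCDN2 and 30.8 and 73.5 CPM with CDN2, and the formulations overlapped. Single tumors decided calls, which were lost without exoCDN2 replicate 2 for Srgn (-2.83), without CDN2 replicate 1 or either exoCDN2 tumor for Cd160 (1.42), Cd96 (1.74), Fasl (1.38) and Pdcd1 (1.21), without CDN2 replicate 1 or exoCDN2 replicate 2 for Tnfrsf9 (-1.15) and without CDN2 replicate 2 or either exoCDN2 tumor for Gzmk (1.59).

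NK cell genes had a median log2 ratio of 1.47 over 17 genes, but 1 rose and 1 fell. Klrc1, which encodes the inhibitory receptor NKG2A, was higher (8.32 and 6.61 CPM against 1.59 and 2.77 CPM, log2 ratio 1.75), and Itga2 was lower (-1.90). Ncr1, the receptor that defines NK cells in mice, read 2.07 and 2.01 CPM against 0.057 and 1.07 CPM (log2 ratio 1.70, edgeR adjusted p = 0.18). Without CDN2 replicate 2, 10 NK cell genes were called higher, and without CDN2 replicate 1 or exoCDN2 replicate 1 none was. Naive and stem-like T cell genes went the other way, with 1 of 11 higher (Tcf7, log2 ratio 1.00) and 4 lower, among them Klf2 (-1.79) and Ccr7 (-1.45). Their median of -0.43 turned to 0.08 without CDN2 replicate 1, and no gene of the list was called lower without that tumor or without exoCDN2 replicate 2. Of the 7 B cell genes tested, none changed. The test was missed without exoCDN2 replicate 2 for Tcf7 (0.99), without CDN2 replicate 1 or exoCDN2 replicate 1 for Klrc1 (1.43), without CDN2 replicate 1 or exoCDN2 replicate 2 for Klf2 (-0.72) and without CDN2 replicate 1 or either exoCDN2 tumor for Ccr7 (-1.08) and Itga2 (-0.30).

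**Figure D2:**
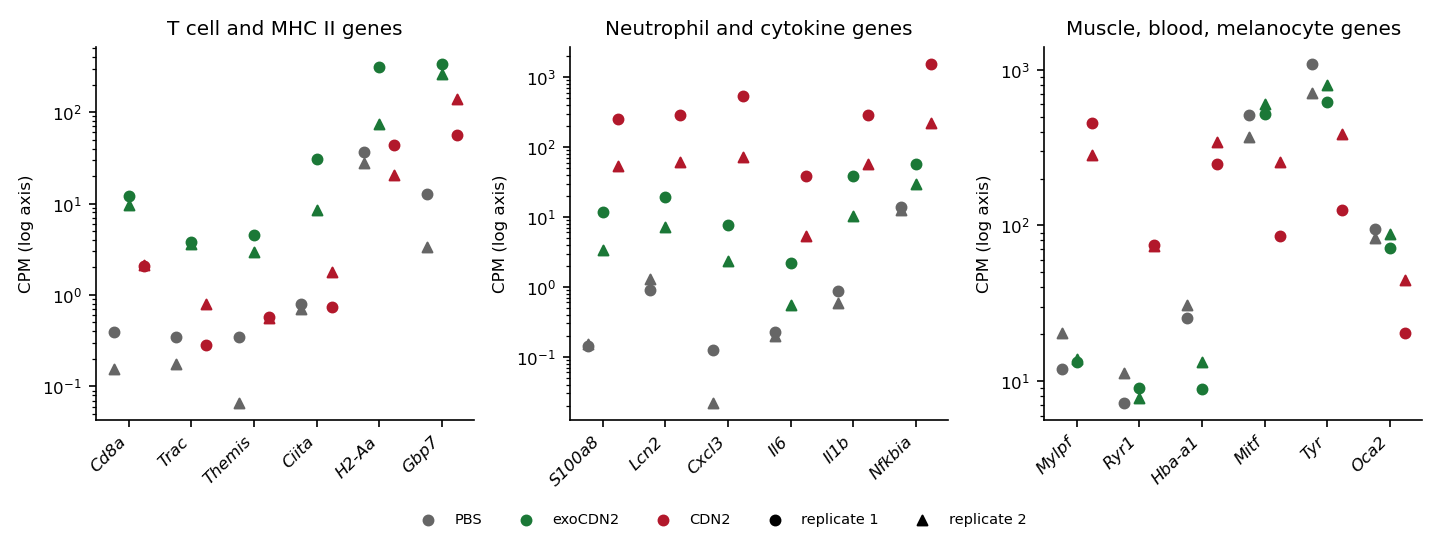
CPM on a log axis in each of the 6 tumors taken after 2 doses, for 18 named genes in 3 panels (grey PBS, green exoCDN2, red CDN2, circles and triangles for replicates 1 and 2). The exoCDN2 points lie above both CDN2 points for the T cell and MHC class II genes, for example 12.1 and 9.70 CPM against 2.05 and 2.12 CPM for Cd8a, and below them for the neutrophil, cytokine, muscle and globin genes.

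Genes of MHC class II presentation were higher with exoCDN2. Of 12 tested, 6 rose with exoCDN2 and none fell (median log2 ratio 2.08). Ciita (ENSMUSG00000022504, chr16:10480059-10528418), the transactivator that switches on the class II genes, stood at 31.1 and 8.49 CPM with exoCDN2 and at 0.739 and 1.77 CPM with CDN2. The CDN2 tumors were near the PBS tumors, at 0.804 and 0.707 CPM, and the log2 ratio between formulations was 3.90 (SE 0.88, edgeR adjusted p = 0.0071). H2-Aa, a class II alpha chain, read 314 and 74.2 CPM against 44.2 and 20.8 CPM, with 36.5 and 28.1 CPM in PBS. The formulations did not overlap, and the log2 ratio was 2.58 (SE 0.72). H2-DMb1, part of the peptide loader and close in sequence to H2-DMb2 so that its counts are uncertain, had a log2 ratio of 2.04. Against PBS, 8 of the 12 genes rose with exoCDN2 (median 2.62) and 2 with CDN2 (0.74). On leaving out CDN2 replicate 1, CDN2 replicate 2, exoCDN2 replicate 1 and exoCDN2 replicate 2 in turn, 2, 2, 1 and 7 class II genes passed, with medians from 1.01 to 2.63. Calls were lost without CDN2 replicate 1 for Ciita (3.47), without CDN2 replicate 1 or exoCDN2 replicate 1 for H2-DMb1 (1.13) and without CDN2 replicate 2 or exoCDN2 replicate 1 for H2-Aa (1.23).

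Interferon-induced genes were high with both formulations, and differed by gene rather than as a group. All 47 tested genes of the type I interferon list rose against PBS with exoCDN2 and with CDN2 (medians 4.66 and 4.77). Between formulations 1 was higher and 9 were lower, with a median of -0.16 that turned to 0.11 under total-count scaling. Isg15 (ENSMUSG00000035692, chr4:156199424-156200818), a ubiquitin-like modifier, read 241 and 193 CPM with exoCDN2, 1072 and 671 CPM with CDN2 and 4.35 and 4.51 CPM with PBS. Both CDN2 tumors were above both exoCDN2 tumors, with a log2 ratio of -2.0 (SE 0.24, edgeR adjusted p = 0.0010) that held without each tumor. It was -1.06, still called, in an added fit with each tumor's trend on transcript length and GC content removed. Rtp4, a transporter chaperone (-1.13), and Cmpk2, a mitochondrial nucleotide kinase (-1.28), were also lower. Ifit1 and Mx1, both classical antiviral effectors, overlapped between formulations (166 and 164 CPM against 147 and 241 CPM for Ifit1, 54.6 and 38.4 CPM against 52.5 and 57.2 CPM for Mx1). When CDN2 replicate 1, CDN2 replicate 2, exoCDN2 replicate 1 and exoCDN2 replicate 2 were left out in turn, 5, 11, 10 and 1 genes of the list were lower. Ifnb1, which encodes interferon beta, had 7 and 3 counts with exoCDN2 and 185 and 40 counts with CDN2, with no count in PBS. Its difference passed the test (edgeR adjusted p = 0.0048). Leave-one-out fits lost calls without CDN2 replicate 1 or exoCDN2 replicate 2 for Rtp4 (-0.87) and without exoCDN2 replicate 2 for Cmpk2 (-1.09) and Ifnb1 (-5.27).

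Genes induced by interferon gamma rose against PBS in 33 of 33 cases with exoCDN2 and 32 of 33 with CDN2 (medians 5.97 and 5.70). Between formulations 3 rose and 3 fell, around a median of 0.20. These shares were near those of all tested genes, 7.34% higher and 12.0% lower, so the genes below are described singly and not as a change of the list. Gbp7, a guanylate-binding protein that acts against intracellular pathogens, read 337 and 264 CPM with exoCDN2 and 56.8 and 138 CPM with CDN2 (log2 ratio 1.62, SE 0.51). Gbp11 (log2 ratio 2.34) and Gbp2b (3.61) were higher as well, while Gbp2 did not separate (963 and 527 CPM against 910 and 666 CPM). The 3 that fell were Cxcl10 and Cxcl11, ligands of CXCR3 (-1.61 and -2.05), and Nos2, the inducible nitric oxide synthase of myeloid cells (-2.48). Cxcl9, the ligand most tied to interferon gamma, overlapped at 305 and 232 CPM against 439 and 219 CPM. Nlrc5, the transactivator of class I genes, was higher at 151 and 104 CPM against 30.3 and 59.2 CPM (log2 ratio 1.51). Among 22 class I presentation genes it was the one that rose, H2-Q6 and H2-Q7 fell (-1.65 and -1.79), near copies of each other with uncertain counts, and B2m and H2-K1, the main class I chains, overlapped between formulations. Neither share of the class I list was above that of all tested genes. With CDN2 replicate 1, CDN2 replicate 2, exoCDN2 replicate 1 and exoCDN2 replicate 2 left out in turn, 0, 2, 0 and 2 interferon gamma-induced genes were higher and 0, 5, 4 and 0 lower. Single tumors decided calls, which were lost without CDN2 replicate 1 or exoCDN2 replicate 2 for Cxcl11 (-1.22), Cxcl10 (-1.33), H2-Q6 (-0.83), H2-Q7 (-0.84) and Nos2 (-0.74), without CDN2 replicate 1 or exoCDN2 replicate 1 for Nlrc5 (1.10) and Gbp11 (1.35), without either CDN2 tumor or exoCDN2 replicate 1 for Gbp2b (3.08) and without CDN2 replicate 1 or either exoCDN2 tumor for Gbp7 (1.12).

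The promoters of Isg15, which was lower with exoCDN2, and Gbp7, which was higher, are shown because the 2 genes moved apart while both holding the same short element. Windows run from 250 bases before to 50 after the gene's start (RefSeq, GRCm38.p6), and 11883 of the tested genes had at least 1. Capitals mark GAAANNGAA, the core of the interferon-stimulated response element, searched on both strands. The Isg15 window is chr4:156200769-156201068 on the minus strand, with 3 overlapping matches that begin 78, 72 and 66 bases before the start. The Gbp7 window is chr3:142530086-142530385 on the plus strand, with 1 match on the other strand 52 bases before the start.
Isg15: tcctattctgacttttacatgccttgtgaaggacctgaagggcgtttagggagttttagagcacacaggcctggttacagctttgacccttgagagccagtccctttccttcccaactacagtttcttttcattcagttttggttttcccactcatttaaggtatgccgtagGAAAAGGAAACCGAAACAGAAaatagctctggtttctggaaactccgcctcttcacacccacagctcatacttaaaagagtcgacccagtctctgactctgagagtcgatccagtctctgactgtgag
Gbp7: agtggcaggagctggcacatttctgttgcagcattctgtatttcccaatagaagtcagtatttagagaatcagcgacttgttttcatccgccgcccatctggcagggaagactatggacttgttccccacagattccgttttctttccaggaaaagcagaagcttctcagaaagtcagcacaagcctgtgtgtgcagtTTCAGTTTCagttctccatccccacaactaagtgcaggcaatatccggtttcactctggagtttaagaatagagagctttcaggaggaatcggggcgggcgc
The element was present in 23 of 42 windows of the type I interferon list (54.8%), in 14 of 23 of the interferon gamma list (60.9%) and in 8.56% of all 32851 windows. Among all genes that changed between formulations, it was in 7.12% of the windows of higher genes and 8.46% of those of lower genes, against 7.50% of the windows of all tested genes. The Gbp7 window also holds the letters TTCNNNGAA, a gamma-activated site, not marked here, which the Isg15 window lacks. Those letters were in 10 of 23 windows of the interferon gamma list (43.5%) and 6 of 42 of the type I list (14.3%). They were in 7.88% of the windows of higher genes, 7.21% of those of lower genes and 7.03% of those of all tested genes. GAAANNGAA overlaps in part with other interferon motifs, and a match to either describes letters only.

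Neutrophil genes were lower with exoCDN2 than with CDN2. Of 19 tested, 17 fell and none was higher, with a median log2 ratio of -4.13. S100a8 (ENSMUSG00000056054, chr3:90668978-90670035), a calcium-binding protein that fills neutrophils, read 11.8 and 3.31 CPM with exoCDN2, 249 and 54.3 CPM with CDN2 and 0.144 and 0.155 CPM with PBS. Both exoCDN2 tumors were above PBS and below both CDN2 tumors (log2 ratio -4.33, SE 0.89, edgeR adjusted p = 0.0049). Lcn2, an iron-withholding protein of neutrophil granules, read 19.3 and 7.27 CPM against 286 and 60.6 CPM. Its log2 ratio of -3.71 (SE 0.72) held without each tumor. Ly6g, the surface marker that defines mouse neutrophils, had 3 and 1 counts with exoCDN2 and 111 and 52 counts with CDN2. The summed level of the list was 144 and 55.0 CPM with exoCDN2 and 1736 and 387 CPM with CDN2, over 8.70 and 5.99 CPM with PBS. Against PBS, 11 of the 19 rose with exoCDN2 (median 3.70) and 19 with CDN2 (8.14). In fits that left out CDN2 replicate 1, CDN2 replicate 2, exoCDN2 replicate 1 and exoCDN2 replicate 2 in turn, 7, 19, 15 and 4 were lower, and the median stayed between -5.30 and -2.34. CDN2 replicate 1, the shallower tumor, held the higher CPM of each of the 3 neutrophil genes named here. The test was missed without exoCDN2 replicate 2 for S100a8 (-3.65).

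Chemokines and NF-kB targets fell alongside. Of 27 chemokines, 14 were lower and none higher (median -1.61). Cxcl3 (ENSMUSG00000029379, chr5:90786103-90789600), which draws neutrophils through CXCR2, read 7.73 and 2.36 CPM with exoCDN2 and 535 and 72.0 CPM with CDN2, over 0.124 and 0.022 CPM with PBS. The groups were far apart, with a log2 ratio of -5.92 (SE 0.94, edgeR adjusted p = 0.0019) that held without each tumor. Cxcl1, a ligand of the same receptor, read 2.91 and 0.597 CPM against 44.8 and 6.58 CPM (log2 ratio -3.88, SE 0.87). Pf4 and Ppbp, chemokines stored in platelets, read 8.99 and 5.58 CPM against 41.4 and 24.0 CPM and 0.708 and 0.185 CPM against 30.7 and 6.42 CPM. Both were lower (-2.17 and -5.40) and held without each tumor. Ccl5, a chemokine of T cells and macrophages, was lower as well (219 and 205 CPM against 752 and 310 CPM, log2 ratio -1.32), but its ratio was -0.27 and not called with the trend on transcript length and GC content removed, where Pf4 stood at -1.19 and was called. On leaving out CDN2 replicate 1, CDN2 replicate 2, exoCDN2 replicate 1 and exoCDN2 replicate 2 in turn, 6, 17, 13 and 5 chemokines were lower. Without CDN2 replicate 2, 1 was higher. Calls were lost without CDN2 replicate 1 or exoCDN2 replicate 2 for Cxcl1 (-1.94) and without CDN2 replicate 1 or either exoCDN2 tumor for Ccl5 (-0.55).

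The Cxcl1 and Cxcl3 promoters are shown because both ligands moved together and each window holds 1 match to an NF-kB site. Capitals mark GGGANTTTC, searched on both strands. The Cxcl1 window is chr5:90890995-90891294 and the Cxcl3 window chr5:90785851-90786150, both on the plus strand, and the matches begin 71 and 73 bases before the start.
Cxcl1: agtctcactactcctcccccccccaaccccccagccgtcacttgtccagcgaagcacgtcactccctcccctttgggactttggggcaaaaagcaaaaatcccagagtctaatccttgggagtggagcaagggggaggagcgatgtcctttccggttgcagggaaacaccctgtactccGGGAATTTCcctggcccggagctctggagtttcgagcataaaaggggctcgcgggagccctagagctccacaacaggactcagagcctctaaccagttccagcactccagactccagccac
Cxcl3: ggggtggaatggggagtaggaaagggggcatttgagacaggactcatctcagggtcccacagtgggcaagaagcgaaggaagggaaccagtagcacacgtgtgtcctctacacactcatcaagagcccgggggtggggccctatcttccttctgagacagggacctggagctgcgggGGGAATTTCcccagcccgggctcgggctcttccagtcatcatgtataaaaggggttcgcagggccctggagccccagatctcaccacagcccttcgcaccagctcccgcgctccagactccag
A match was present in 4 of 18 chemokine windows (22.2%) and in 1.11% of all windows. It was in 0.587% of the windows of genes higher with exoCDN2 and in 1.5% of those of lower genes, against 1.01% of those of all tested genes.

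Of 21 TNF and NF-kB target genes, 13 were lower with exoCDN2 and none was higher (median -1.55). Nfkbia, the inhibitor that NF-kB induces to limit itself, read 56.4 and 29.9 CPM against 1541 and 217 CPM, with 13.8 and 12.8 CPM in PBS. The difference (log2 ratio -4.35, SE 0.70, edgeR adjusted p = 0.0020) held without each tumor. Il6, an acute-phase cytokine, read 2.22 and 0.555 CPM against 38.6 and 5.34 CPM (log2 ratio -4.0), and Csf3, the growth factor of neutrophils, 0.374 and 0.028 CPM against 17.5 and 1.53 CPM (-5.62). Tnf itself overlapped between formulations, at 4.54 and 2.73 CPM against at least 4.32 CPM in each CDN2 tumor (log2 ratio -0.97, edgeR adjusted p = 0.18). Among 16 inflammasome and IL-1 genes, 7 were lower and 1 higher. Il1b, the main IL-1 cytokine of myeloid cells, read 38.5 and 10.2 CPM against 283 and 56.8 CPM (log2 ratio -2.80, SE 0.71), and Il1a had a log2 ratio of -3.77. Nlrp1b, a sensor of the inflammasome, was the one higher gene (2.68). When CDN2 replicate 1, CDN2 replicate 2, exoCDN2 replicate 1 and exoCDN2 replicate 2 were left out in turn, 3, 16, 14 and 3 NF-kB genes and 1, 7, 7 and 1 inflammasome genes were lower. Leave-one-out fits lost calls without CDN2 replicate 1 or exoCDN2 replicate 2 for Il6 (-1.99) and Il1b (-1.23) and without CDN2 replicate 1 or either exoCDN2 tumor for Nlrp1b (2.28).

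Other myeloid lists were less uniform. Of 9 mast cell genes, 4 were lower (median -1.59), led by Tpsab1, a tryptase (log2 ratio -4.30), and Hdc, the histamine-forming enzyme, which neutrophils also induce (-3.27). With CDN2 replicate 1, CDN2 replicate 2, exoCDN2 replicate 1 and exoCDN2 replicate 2 left out in turn, 1, 5, 4 and 1 mast cell genes were lower. Of 22 macrophage genes, 3 were higher and 1 lower, and 8 had a positive and 14 a negative log2 ratio. The lower gene was Maf, a transcription factor (log2 ratio -3.82). Its ratio ran from -4.53 to -2.15 without single tumors and was -4.32 with the trend on transcript length and GC content removed. Adgre1, which encodes F4/80, read 46.8 and 33.0 CPM against 14.1 and 14.9 CPM (log2 ratio 1.46) and Siglec1, a sialic acid receptor, 23.6 and 14.6 CPM against 6.99 and 7.44 CPM (1.40). C1qa, a complement subunit made by macrophages, read 98.2 and 73.0 CPM against 105 and 109 CPM, with no call (log2 ratio -0.32). In fits that left out CDN2 replicate 1, CDN2 replicate 2, exoCDN2 replicate 1 and exoCDN2 replicate 2 in turn, 0, 3, 1 and 1 macrophage genes were higher. The macrophage median of -0.18 changed sign without CDN2 replicate 1, without exoCDN2 replicate 2, under total-count scaling and with the length trend removed. Single tumors decided calls, which were lost without CDN2 replicate 1 or exoCDN2 replicate 2 for Hdc (-1.84), without CDN2 replicate 1 or exoCDN2 replicate 1 for Siglec1 (1.04) and without each of the 4 tumors for Adgre1 (1.21).

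Among receptors of innate sensing, Tlr9, the endosomal receptor for DNA, was higher with exoCDN2 at 18.5 and 10.9 CPM against 1.59 and 4.56 CPM (log2 ratio 2.22, SE 0.49), and held without each tumor. Tlr2, which detects bacterial lipoproteins, was lower (17.0 and 14.1 CPM against 55.2 and 24.3 CPM, log2 ratio -1.35). Tmem173, the gene of STING itself, overlapped at 93.3 and 79.3 CPM against 73.1 and 89.7 CPM. Trex1, the nuclease that clears cytosolic DNA and an interferon target, was lower (37.9 and 20.7 CPM against 158 and 54.5 CPM, log2 ratio -1.86). The test was missed without CDN2 replicate 1 or exoCDN2 replicate 2 for Trex1 (-0.90) and Tlr2 (-0.65).

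**Figure D3:**
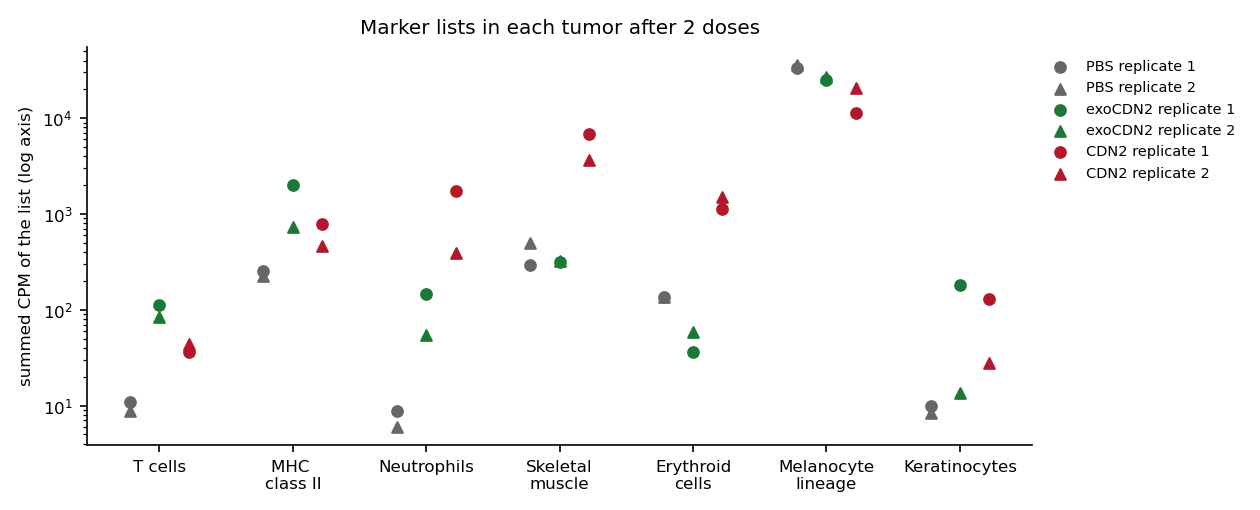
Summed CPM of 7 marker lists (log axis) in each of the 6 tumors taken after 2 doses, coloured by group, with circles and triangles for replicates 1 and 2. Skeletal muscle genes reached 6784 and 3617 CPM with CDN2 and 315 and 324 CPM with exoCDN2, and keratinocyte genes were split by tumor rather than by group (179 and 13.6 CPM with exoCDN2, 129 and 27.7 CPM with CDN2).

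Genes of skeletal muscle and of red blood cells were among the largest differences, and both were high in the CDN2 tumors. Of 20 muscle genes, 15 were lower with exoCDN2 (median -3.81). Mylpf (ENSMUSG00000030672, chr7:127208890-127214298), a myosin light chain of fast muscle, read 13.2 and 13.8 CPM with exoCDN2, 456 and 283 CPM with CDN2 and 11.9 and 20.4 CPM with PBS. The exoCDN2 and PBS tumors overlapped, and the formulations were apart by a log2 ratio of -4.77 (SE 0.88, edgeR adjusted p = 0.0032) that held without each tumor. Ryr1, the calcium release channel of muscle, read 8.97 and 7.75 CPM against 74.4 and 73.6 CPM (log2 ratio -3.15, SE 0.52). Against PBS, none of the 20 genes changed with exoCDN2 (median -0.20) and 16 rose with CDN2 (3.45). On leaving out CDN2 replicate 1, CDN2 replicate 2, exoCDN2 replicate 1 and exoCDN2 replicate 2 in turn, 10, 15, 5 and 4 muscle genes were lower, with medians from -4.14 to -3.31.

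All 5 tested erythroid genes were lower with exoCDN2 (median -4.74), and all 5 stayed lower without each of the 4 tumors. Hba-a1, an alpha globin whose counts are uncertain because Hba-a2 is a near copy, read 8.89 and 13.2 CPM with exoCDN2, 247 and 344 CPM with CDN2 and 25.4 and 30.9 CPM with PBS. The PBS tumors lay between the formulations, and 3 of the 5 genes were lower than PBS with exoCDN2 while 5 were higher with CDN2. The log2 ratio of Hba-a1 between formulations was -4.74 (SE 0.53, edgeR adjusted p = 0.0010). How much muscle or blood each sample of tumor contained was not recorded in the sources used here, and its part in the differences of other genes was not tested.

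Stromal and matrix genes were also lower with exoCDN2. Of 18 genes of matrix remodelling and the wound response, 12 fell and 1 rose (median -1.67). Mmp3, a matrix metalloproteinase of activated fibroblasts, read 24.9 and 14.4 CPM against 357 and 77.3 CPM, with 4.29 and 4.82 CPM in PBS. Its log2 ratio of -3.46 (SE 0.60) held without each tumor. Arg1, an arginine-consuming enzyme of myeloid cells, had a log2 ratio of -2.21, and Mmp14, a membrane-bound metalloproteinase, was the gene that rose (1.03). Of 26 fibroblast and collagen genes, 9 fell and none rose, led by Dcn, a collagen-binding proteoglycan (78.0 and 38.2 CPM against 1255 and 185 CPM, log2 ratio -3.63). Col1a1, the chief collagen of fibroblasts, did not follow, at 252 and 118 CPM against 87.4 and 147 CPM. When CDN2 replicate 1, CDN2 replicate 2, exoCDN2 replicate 1 and exoCDN2 replicate 2 were left out in turn, 4, 14, 13 and 4 matrix genes and 0, 14, 10 and 0 fibroblast genes were lower. Keratinocyte genes ran from a median of -4.66 to 3.80 when single tumors were left out. Calls were lost without CDN2 replicate 1 or exoCDN2 replicate 2 for Dcn (-1.67) and Arg1 (-1.18) and without CDN2 replicate 1 or either exoCDN2 tumor for Mmp14 (0.58).

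Genes of the melanoma cells were lower with CDN2. Of 20 melanocyte lineage genes, 4 were higher and 1 lower with exoCDN2 (median 0.59). Mitf (ENSMUSG00000035158, chr6:97807052-98021349), the master factor of the lineage, stood at 524 and 598 CPM with exoCDN2, 85.8 and 255 CPM with CDN2 and 515 and 370 CPM with PBS. The exoCDN2 tumors were at or above PBS and the CDN2 tumors below it, with a log2 ratio of 1.71 (SE 0.39, edgeR adjusted p = 0.0071) that held without each tumor. Tyr, the enzyme that starts melanin synthesis, read 617 and 801 CPM against 126 and 385 CPM (log2 ratio 1.47, SE 0.38), and Oca2, a melanosome channel, 71.3 and 87.5 CPM against 20.3 and 44.5 CPM (1.29). Pmel, the melanosome matrix protein, read 3711 and 3680 CPM against 1278 and 2836 CPM and stayed under the ratio limit (0.85), and Mlana moved little (-0.30). Ednrb, the endothelin receptor of melanoblasts, was the gene that was lower (-1.48). Against PBS, 11 of the 20 genes were lower with CDN2 and 1 with exoCDN2. With CDN2 replicate 1, CDN2 replicate 2, exoCDN2 replicate 1 and exoCDN2 replicate 2 left out in turn, 1, 10, 3 and 2 were higher. Leave-one-out fits lost calls without CDN2 replicate 1 for Oca2 (0.84), without CDN2 replicate 1 or exoCDN2 replicate 2 for Tyr (0.88) and without CDN2 replicate 1 or either exoCDN2 tumor for Ednrb (-0.22).

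The Tyr promoter is shown because Mitf, the factor known to bind its M-box, changed in the same direction. Capitals mark TCATGTG, searched on both strands, and the window is chr7:87493463-87493762 on the minus strand, with 1 match that begins 22 bases before the start.
Tyr: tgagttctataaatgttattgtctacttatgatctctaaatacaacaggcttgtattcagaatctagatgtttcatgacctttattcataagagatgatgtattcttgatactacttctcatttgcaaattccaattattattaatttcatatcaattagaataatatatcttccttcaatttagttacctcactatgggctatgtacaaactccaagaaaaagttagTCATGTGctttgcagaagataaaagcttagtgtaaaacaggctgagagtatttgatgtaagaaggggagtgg
The M-box letters were in 7 of 18 melanocyte windows (38.9%) and in 3.77% of all windows. They were in 2.18% of the windows of genes higher with exoCDN2 and 2.44% of those of lower genes, against 2.41% of those of all tested genes.

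Of 36 cell cycle genes, 4 were higher and 2 lower with exoCDN2 (median 0.33), where 7.34% of all tested genes were higher and 12.0% lower. The median turned to -0.04 without exoCDN2 replicate 2. Mki67, a marker of cycling cells, read 52.5 and 110 CPM with exoCDN2 and 13.4 and 23.1 CPM with CDN2, and Top2a, the topoisomerase of dividing cells, 238 and 354 CPM against 58.6 and 159 CPM. The log2 ratios were 2.14 (SE 0.62) and 1.44 (SE 0.39), and PBS tumors ranged from 33.5 to 191 CPM for Mki67. E2f1, which drives entry into S phase, was lower (-1.62). Without CDN2 replicate 1 or exoCDN2 replicate 2 no cell cycle gene was called higher, and without CDN2 replicate 2 and exoCDN2 replicate 1, 10 and 6 were. Among 25 endothelial genes, 5 were higher and 1 lower, with Kdr, the VEGF receptor, higher (19.2 and 19.3 CPM against 7.22 and 9.02 CPM, log2 ratio 1.24), and Cdh5 and Pecam1, the junction proteins, not called (0.35 and 0.29). Kdr held without each tumor but was not called with the trend on transcript length and GC content removed (0.91). The number of higher endothelial genes fell to 1 without CDN2 replicate 1, 3 without exoCDN2 replicate 1 and 2 without exoCDN2 replicate 2, and was 9 without CDN2 replicate 2. Single tumors decided calls, which were lost without CDN2 replicate 1 or exoCDN2 replicate 1 for E2f1 (-0.65) and without CDN2 replicate 1 or exoCDN2 replicate 2 for Top2a (0.89) and Mki67 (1.53).

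Differences also followed the length of the transcript. With the tested genes divided into 5 equal classes by length, the shortest class (151 to 1703 nucleotides) had a median log2 ratio of -0.68, with 57 genes higher and 873 lower. In the longest class (4980 to 123179 nucleotides) it was 0.55, with 680 higher and 201 lower. The slope was present in the CDN2 tumors, whose medians against PBS ran from 0.70 in the shortest class to -0.47 in the longest, while those of exoCDN2 ran from -0.02 to 0.07. Across 16894 genes, Spearman's rho of the log2 ratio was 0.41 with length and -0.22 with GC content, as a description across genes that share the same libraries. With the trend of each tumor on length and GC content removed, 2248 genes changed, 745 higher and 1503 lower.

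**Figure D4:**
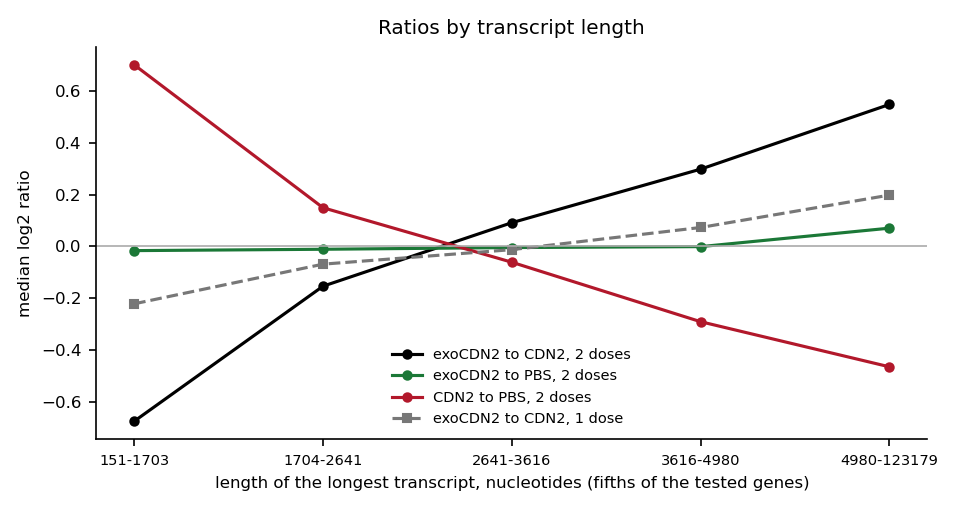
Median log2 ratio (vertical axis) in each of 5 equal classes of the tested genes by length of the longest transcript in nucleotides (horizontal axis), for exoCDN2 against CDN2 after 2 doses and after 1 dose and for each formulation against PBS. The line of exoCDN2 against CDN2 climbs from -0.68 to 0.55, that of CDN2 against PBS drops from 0.70 to -0.47, and that of exoCDN2 against PBS stays between -0.02 and 0.07.

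Among gene groups of short transcripts, the ribosomal protein genes moved with this trend and the MHC class II genes (median transcript length 1446 nucleotides, median log2 ratio 2.08) against it. Of 32 ribosomal protein genes (median transcript length 1124 nucleotides), 19 were lower with exoCDN2 (median -1.13), and 4 were lower with the trend removed (median -0.39). Rps19, a subunit of the small ribosome, read 336 and 315 CPM with exoCDN2, 1629 and 898 CPM with CDN2 and 333 and 353 CPM with PBS. The exoCDN2 tumors were at the level of PBS, and the log2 ratio was -1.96 (SE 0.22), or -1.85 with the trend removed. Of 30 nuclear genes of the electron transport chain, 4 were lower, a share near the 12.0% of all tested genes, and 1 was lower with the trend removed. Ndufa5, a subunit of complex I, read 71.1 and 70.5 CPM against 174 and 160 CPM (log2 ratio -1.24) and was not called with the trend removed (-0.45). The part of RNA quality in these differences was not tested. With the trend removed, 745 of the 16927 tested genes were higher and 1503 lower. Among the higher were 10 T cell genes and 8 MHC class II genes, and among the lower 15 neutrophil, 14 muscle and 5 erythroid genes. Tyr lost its call in that fit (0.86), as did Ebi3 (-1.45), Il27 (-2.06), Ccr7 (-1.03), Rtp4 (-0.81), Siglec1 (1.17) and Trex1 (-0.995). In fits that left out CDN2 replicate 1, CDN2 replicate 2, exoCDN2 replicate 1 and exoCDN2 replicate 2 in turn, 10, 22, 19 and 18 ribosomal genes and 2, 10, 6 and 4 electron transport genes were lower. Mitochondrial ribosomal RNA was also far higher with CDN2, with mt-Rnr2 at 747 and 680 CPM against 13663 and 2675 CPM, whereas mt-Nd1, a complex I subunit encoded beside it, overlapped at 2737 and 2898 CPM against 2389 and 3627 CPM.

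The 10 protein-coding genes with the smallest p in each direction split by length as well. Those higher with exoCDN2 had a median transcript length of 5446 nucleotides and those lower one of 998, against 3097 over all tested genes. The higher ones were Gm28036, a predicted gene of uncertain counts, Akna, Fam84b, Nckap1, Map7d2, Ap1g1, Smarcc2, Med14, Asap1 and Rims2. Nckap1, part of the actin-nucleating WAVE complex, read 404 and 416 CPM against 143 and 196 CPM, with 528 and 482 CPM in PBS (log2 ratio 1.27). The lower ones were Hspb6, Ankrd23, Phpt1, Hba-a2, Ndufa5, Bax, Ndufs6, Tnnt1, Snrpd2 and Ndufa3. Hspb6 read 9.34 and 8.24 CPM against 71.4 and 66.3 CPM (log2 ratio -2.97, SE 0.23, edgeR adjusted p = 0.00031). Bax, the pore-forming protein of apoptosis, read 131 and 135 CPM against 363 and 307 CPM (log2 ratio -1.33). With the trend on length and GC content removed, 5 of the 10 higher genes (Nckap1, Ap1g1, Smarcc2, Med14 and Asap1) and 6 of the 10 lower genes (Phpt1, Ndufa5, Bax, Ndufs6, Snrpd2 and Ndufa3) were no longer called. The test was missed without CDN2 replicate 1 for Ap1g1 (0.93) and without CDN2 replicate 1 or exoCDN2 replicate 1 for Smarcc2 (0.95).

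In the fit of 16 tumors, far fewer genes were called after 1 dose, when 34 were higher with exoCDN2 (0.201%) and 69 were lower (0.408%). These counts rest on all 4 tumors, since between 0 and 1 genes changed without any one of them. With only the groups compared in the fit, the order of the counts was reversed, with 354 genes changed after 1 dose and 30 after 2. For the genes that differed after 2 doses, the median log2 ratio after 1 dose was 0.24 for the 1242 higher and -0.04 for the 2037 lower genes. These genes were picked by their ratio after 2 doses, so a ratio nearer to none in other tumors follows in part from that choice. The difference between the 2 numbers of doses was tested as an interaction, which called 503 genes more strongly higher (2.97%) and 904 more strongly lower (5.34%) with exoCDN2 after 2 doses than after 1. The interaction uses the same 2-dose tumors, so it gives no separate support for genes picked by their 2-dose difference. Without single tumors these 1407 genes ranged from 5, without exoCDN2 1-dose replicate 1, to 4847, without CDN2 2-dose replicate 2. They numbered 339 without exoCDN2 1-dose replicate 2, 46 without CDN2 1-dose replicate 1, 633 without CDN2 2-dose replicate 1, and 51 and 199 without exoCDN2 2-dose replicates 1 and 2.

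**Figure D5:**
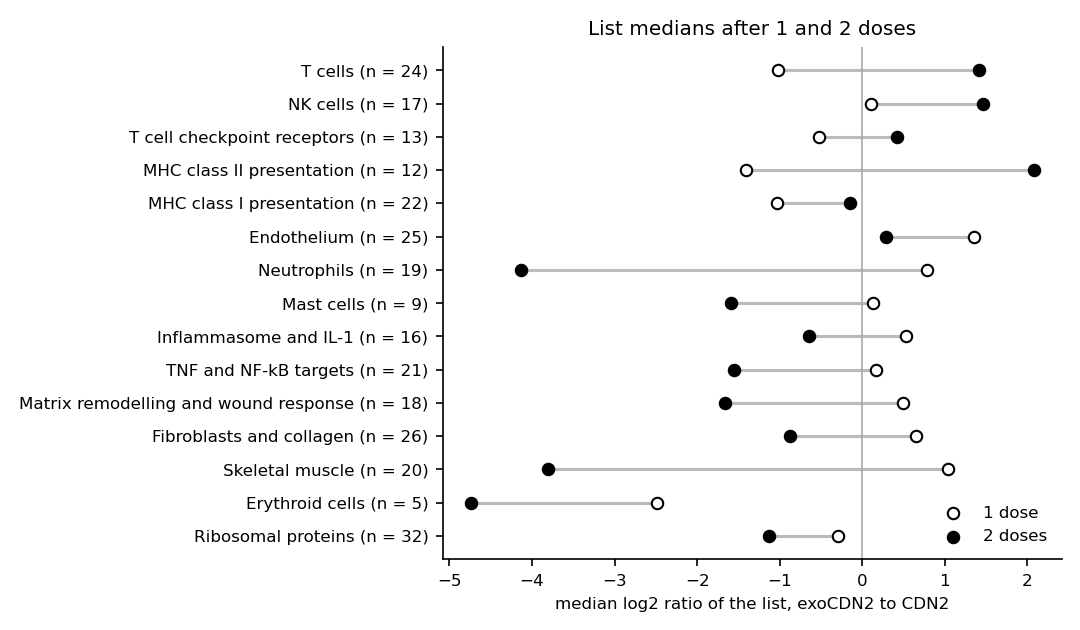
Median log2 ratio of exoCDN2 to CDN2 (horizontal axis) of 15 gene lists after 1 dose (open points) and 2 doses (filled points). The T cell and MHC class II medians run from -1.01 and -1.41 after 1 dose to 1.41 and 2.08 after 2, and the neutrophil and skeletal muscle medians from 0.78 and 1.04 to -4.13 and -3.81.

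By the interaction test, 7 of 24 T cell genes and 6 of 12 MHC class II genes shifted to higher values, and 12 of 19 neutrophil, 13 of 20 muscle, 12 of 18 matrix, 10 of 27 chemokine and 9 of 26 fibroblast genes shifted to lower ones. Cd8a read 0.180 and 0.929 CPM with exoCDN2 and 1.98 and 2.24 CPM with CDN2 after 1 dose, with the CDN2 tumors above the exoCDN2 tumors (interaction log2 4.32, SE 1.07, edgeR adjusted p = 0.032). The exoCDN2 tumors thus read below CDN2 after 1 dose and above it after 2. Ciita read 1.96 and 5.64 CPM with exoCDN2 and 8.18 and 11.5 CPM with CDN2 after 1 dose (interaction log2 5.28, SE 1.17). H2-Aa read 46.5 and 55.4 CPM against 85.5 and 213 CPM after 1 dose (interaction log2 4.14). The 1-dose differences of these 3 genes were not called. S100a8 read 13.6 and 8.36 CPM with exoCDN2 and 2.88 and 7.18 CPM with CDN2 after 1 dose, and Cxcl3 1.98 and 2.42 CPM against 0.400 and 0.699 CPM. For both, the exoCDN2 tumors read above the CDN2 tumors after 1 dose, with no call, and were lower after 2 (interaction log2 -5.46 and -7.93, SE 1.19 and 1.33). Isg15 was level between formulations after 1 dose, at 308 and 309 CPM against 285 and 409 CPM. Hba-a1 was already lower with exoCDN2 after 1 dose, at 62.2 and 93.3 CPM against 280 and 588 CPM (log2 ratio -2.48), as were all 5 erythroid genes, in calls that need all 4 tumors. Mylpf read 41.8 and 12.3 CPM against 6.88 and 22.3 CPM after 1 dose, with overlap between formulations.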

How the data were processed

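RNA from whole B16F10 tumors was sequenced, and 4 of 18 tumors carry the comparison, with 2 per group and groups read from the sample labels. The authors filtered the reads, aligned them with OSA (OmicSoft ArraySuite) to GRCm38, which the submitters' processing notes call mm10, and ran RSEM with the Ensembl R88 models. The expected counts of RSEM were deposited as they were, with no normalization. The values were rounded to whole counts. Symbols and positions came from GENCODE M21, which matched 50376 of 50600 identifiers, and promoters from RefSeq (GRCm38.p6).

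Genes were kept by filterByExpr (minimum count 10, minimum total 15), TMM set the library sizes, and edgeR 4.0.16 in R 4.3.3 fitted 16 tumors in 8 groups by quasi-likelihood (8 residual degrees of freedom, common biological coefficient of variation 0.22). The 2 tumors without an amount in their labels were left out of it. Benjamini-Hochberg adjustment ran over all 16927 genes, and calls needed both an adjusted two-sided p below 0.05 and a ratio over 2. The procedure was also run on simulated counts with the same spread in every group and no trend on transcript length. That run could not test how a wider spread in the CDN2 tumors affects the calls. The interaction compared exoCDN2 with CDN2 after 2 doses relative to 1 dose. Genes with near-identical copies are uncertain, as are antisense and predicted genes, because no source used here gives the strand setting.

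The 50 gene lists were written from general knowledge, and both the members and the lists were chosen with earlier results of these data known, so lists are described by counts and medians without a test. Named genes are fixed anchors of each list, up to 3 genes each way per list with the smallest p where the tumors of the groups did not overlap, and the 10 protein-coding genes each way with the smallest p. Of the 228 genes this gave, not all are reported here. The alternatives tried were DESeq2 1.42.0, RLE factors, total-count scaling, no filter on low counts, only the groups compared, all 18 tumors, a replicate block, no ratio limit, each tumor left out and, added after seeing the data, removal of each tumor's trend on transcript length and GC content (known for 99.8% of genes) and a block with crossed numbers.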

Additional observations from a re-analysis of the deposited data

Results flagged for a closer look

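The difference between exoCDN2 and CDN2 was not the same after 1 and 2 doses for a set of genes described above, by an interaction term in the edgeR fit of 16 tumors. The values that follow are the log2 ratio of exoCDN2 to CDN2 after 2 doses minus that after 1 dose, and all had an adjusted p below 0.05. Among T cell and NK cell genes, the shift was 3.64 for Themis, 4.32 for Trac, 4.32 for Cd8a, 3.28 for Cd3e, 2.33 for Tbx21, 1.07 for Tcf7, 3.15 for Klrc1, 3.37 for Pdcd1, 3.37 for Fasl and 6.15 for Gzmk. Among antigen presentation and interferon-induced genes, the shift was 5.28 for Ciita, 5.07 for H2-DMb1, 4.14 for H2-Aa, 1.73 for Nlrc5, 6.98 for Gbp2b and 2.83 for Gbp11. Among the leading long genes and the melanocyte gene Oca2, the shift was 2.44 for Gm28036, 2.12 for Akna, 1.96 for Map7d2, 1.64 for Rims2, 1.54 for Fam84b, 1.36 for Smarcc2, 1.11 for Asap1, 1.08 for Nckap1, 1.01 for Med14 and 1.69 for Oca2.

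Among neutrophil and mast cell genes, the shift was -6.56 for Ly6g, -5.46 for S100a8, -3.60 for Lcn2, -3.83 for Srgn, -4.15 for Hdc and -4.71 for Tpsab1. Among chemokine genes, the shift was -7.93 for Cxcl3, -4.13 for Cxcl1, -2.74 for Pf4, -2.45 for Cxcl11 and -2.0 for Cxcl10. Among cytokine and NF-kB genes, the shift was -5.97 for Csf3, -5.36 for Ifnb1, -4.66 for Il1a, -4.10 for Il1b, -4.09 for Il6 and -3.80 for Nfkbia. Among muscle and globin genes, the shift was -5.67 for Mylpf, -4.25 for Ryr1, -3.65 for Ankrd23, -3.16 for Hspb6, -2.98 for Tnnt1, -2.52 for Hba-a2 and -2.26 for Hba-a1. Among matrix and fibroblast genes, the shift was -4.95 for Mmp3, -4.34 for Dcn and -3.26 for Arg1. The remaining shifts were -2.58 for Ccr7, -3.05 for Ednrb, -1.84 for Isg15, -1.35 for Ndufa3, -1.32 for Phpt1, -1.66 for Rps19, -2.36 for Tnfrsf9 and -2.98 for mt-Rnr2. Ly6g, Ifnb1 and Tpsab1 rest on few counts in the exoCDN2 tumors, so the size of their shift depends on the fit. Many of the genes given here were chosen by their 2-dose difference, which the interaction reuses, so the shifts are not separate support for it. Leaving out single tumors moved the number of genes with such a shift from 1407 to between 5 and 4847, so single values here are weakly supported.

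The 2 tumors given 2 doses of free CDN2 without an amount in their labels entered no comparison above. Against PBS after 2 doses, 164 genes differed in them, 157 higher and 7 lower, in a fit of all 18 tumors.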

How the results depend on the processing

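For exoCDN2 against CDN2 after 2 doses, the 3279 changed genes became 30 with only the 4 tumors fitted and 6337 with no limit on the ratio, and ranged from 1023 to 6257 without single tumors. The 1407 genes of the interaction with the number of doses became 2737 with no filter and 0 with only the groups compared, and ranged from 5 to 4847. Against PBS, exoCDN2 changed 3034 genes in place of 1920 with no limit on the ratio (902 to 2080 without single tumors), and CDN2 changed 3060 in place of 5177 with only the groups compared and 8515 with no limit. The 103 genes that differed after 1 dose became 386 with DESeq2, 65 with RLE factors, 34 with total counts, 707 with no filter, 354 with only the groups compared, 41 with all 18 tumors, 0 with the replicate block, 180 with no limit on the ratio, and 0 to 1 without single tumors. The causes were not tested, apart from the fewer samples in the fits that left tumors out. Of 50 lists, 19 had a median above 0, with 15 to 26 across all settings.

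Of the 228 named genes, none changed sign with its call. Calls were lost by 100 without CDN2 replicate 1, 86 without exoCDN2 replicate 2, 53 without exoCDN2 replicate 1, 11 without CDN2 replicate 2, 39 with the length and GC trend removed, 16 with total counts and 162 with only the 4 tumors fitted. Same-numbered exoCDN2 and CDN2 tumors deviated together (correlation 0.32), but only 2 pairs exist and the labels name no shared batch, so the numbers were not taken to pair the tumors. With the replicate block, 3109 genes changed between formulations after 2 doses, and with the numbers of CDN2 and PBS crossed (correlation -0.14 as labelled), 5185 in place of 5177 changed against PBS. Depth was lowest in CDN2 replicate 1, and genes of few counts there carry the widest errors.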

Other observations

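The 2 tumors given 2 doses of free CDN2 with no amount in their labels were higher than PBS in many interferon-induced genes. Against PBS, 157 genes in all were called higher in them. These included 25 of the 33 genes induced by interferon gamma and 34 of the 47 type I interferon genes. Also called were 17 of the 22 genes of MHC class I presentation, 4 of 16 cytotoxic effectors and 1 of 24 T cell genes. The fit behind the other comparisons tested 16927 genes. The number tested in the fit that included these 2 tumors is not given here, so no share of all genes is stated. Whether the 1 of 24 T cell genes differs from that share was not tested. The 2 tumors differed, with 3.34% and 7.67% of counts from mitochondrially encoded genes, and the medians below pool them. Their median log2 ratio to PBS was 3.25 over the 33 genes induced by interferon gamma, 1.87 over the 47 type I interferon genes, 2.25 over 22 genes of MHC class I presentation and 2.58 over 16 cytotoxic effectors. T cell genes had a median of 2.12, where CDN2 at 20 µg had 2.54, but with 1 of 24 called the 2 medians were not ranked. MHC class II genes had a median of 1.0. Neutrophil genes had a median of 0.73, where CDN2 at 20 µg had 8.14 and exoCDN2 3.70. The skeletal muscle median was -1.03 and the erythroid median 0.37, whereas CDN2 at 20 µg had 3.45 and 3.30. All these values share the same 2 PBS tumors, and no test between the groups was made because the amount is not stated.

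Some genes of glycolysis and hypoxia also separated the formulations. Of 25 genes of glycolysis and hypoxia, 7 were lower with exoCDN2 and none was higher (median log2 ratio -0.60). The number called lower was also 7 with the trend on transcript length and GC content removed. Of 21 cell death and p53 genes, 4 were lower and 1 higher, and of 20 genes of the unfolded protein and integrated stress response, 4 were lower, where 12.0% of all tested genes were lower. Ndrg1, a hypoxia-responsive gene, read 88.5 and 69.7 CPM with exoCDN2 and 612 and 175 CPM with CDN2 (log2 ratio -2.31), and Slc2a1, the glucose transporter GLUT1, 165 and 147 CPM against 602 and 278 CPM (-1.49). Car9, a classical hypoxia marker, overlapped at 199 and 191 CPM against 181 and 224 CPM. Without CDN2 replicate 1, CDN2 replicate 2, exoCDN2 replicate 1 and exoCDN2 replicate 2 in turn, 3, 8, 6 and 3 genes of the list were lower. Cdkn1a, which encodes the cell cycle inhibitor p21, was lower with exoCDN2 at 270 and 261 CPM against 870 and 527 CPM (log2 ratio -1.39), over 64.9 and 98.2 CPM with PBS, and it lost its call without CDN2 replicate 1 and with the length trend removed. Slc2a1 lost its call without CDN2 replicate 1 or exoCDN2 replicate 2.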
